A study of Mus musculus with 30 samples.

Results

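The genes described here are those that encode the factors which start translation, chosen by name: every symbol of the count tables that opens with Eif and a digit, without Eif2s3x and Eif2s3y. They number 56 of 22609 genes. RNA was sequenced from hind paw and from dorsal root ganglia (DRG), the ganglia that hold the cell bodies of sensory neurons, after prolactin (PRL) or vehicle (Veh, PBS per the protocol) was injected into the paw of 10- to 12-week-old C57BL/6J mice. The 30 libraries form 10 groups of 3: female PRL_Sh, PRL and Veh and male PRL and Veh, each in paw and in DRG. All mice are given as the one strain, and no transgene or deletion is labelled. The protocol gives 1 µg of prolactin, as a single injection or daily for 12 days, and does not say which libraries had which scheme. What Sh stands for is not stated either. By sex, 18 libraries are labelled female and 12 male, and the series' design text has these numbers of mice the other way round. The 6 PRL_Sh libraries were made with an mRNA kit and the other 24 by rRNA depletion, so kit and group cannot be told apart there. The series is titled for the translation of the prolactin receptor and for sex differences in the response to prolactin, which makes the initiation factors of both sexes of interest. The labels do not say that replicates came from separate animals, so each p-value sets a difference against a spread that may be technical.

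Translation starts when eIF2, carrying GTP and the initiator tRNA, joins eIF1, eIF1A, eIF3 and eIF5 on the small ribosomal subunit. The cap-binding protein eIF4E, the scaffold eIF4G and the helicase eIF4A bring this complex to the mRNA, and 4E-binding proteins hold eIF4E back until the kinase mTORC1 phosphorylates them. Under stress, eIF2 kinases phosphorylate eIF2, which then blocks its exchange factor eIF2B. In sensory neurons both routes are known to affect pain sensitivity. The files' older names also place the Argonautes, the small-RNA binding proteins, in this family as Eif2c1 to Eif2c4. Most steps are acted on in the proteins, by phosphorylation, which RNA levels do not show.

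Several factors come as pairs of close relatives that share a role, and in several of them the partners differed between tissues in opposite directions, as described below. The first coding bases of 3 pairs are shown, since reads of 50 bases had to tell such copies apart. In each line the capitals mark bases that differ from the relative, after alignment of the pair.
Eif5a (chromosome 11): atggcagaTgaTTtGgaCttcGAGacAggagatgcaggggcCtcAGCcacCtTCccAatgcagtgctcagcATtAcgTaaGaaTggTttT
Eif5a2 (chromosome 3): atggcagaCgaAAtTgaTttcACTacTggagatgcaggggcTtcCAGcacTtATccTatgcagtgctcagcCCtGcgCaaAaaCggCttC
Eif1 (chromosome 11): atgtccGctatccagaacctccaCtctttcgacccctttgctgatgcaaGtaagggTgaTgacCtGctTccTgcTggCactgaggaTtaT
Eif1b (chromosome 9): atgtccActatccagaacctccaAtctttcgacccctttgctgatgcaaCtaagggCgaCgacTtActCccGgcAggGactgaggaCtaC
Eif4a1 (chromosome 11): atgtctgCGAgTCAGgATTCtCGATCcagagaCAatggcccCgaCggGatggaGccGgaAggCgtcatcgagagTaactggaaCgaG
Eif4a2 (chromosome 16): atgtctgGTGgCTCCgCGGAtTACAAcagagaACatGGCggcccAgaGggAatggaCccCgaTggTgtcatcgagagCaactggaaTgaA
Over the whole coding sequence, from the GENCODE vM21 transcripts, identity was 72.3% for the Eif5a pair, 81.3% for the Eif1 pair and 77.5% for the Eif4a pair. The longest identical run was 14, 25 and 20 bases in that order, and no stretch of 50 bases was shared within a pair. A read of 50 bases could thus be placed on one copy or the other. Stretches shared with other annotated genes are another matter. For 13 members, more than 10% of the 50-base stretches of their transcripts also occur in other genes, led by Eif4ebp3 with 65.5%, Eif3j with 50.9%, Eif3d with 37.2%, Eif4a1 with 28.4% and Eif3h with 20.3%. Not all of these are copies elsewhere in the genome. Eif4ebp3, Eif3d and Eif1ad each share theirs with 1 gene annotated over the same place. For Eif4ebp3 it is AC115631.1, on the same strand. For Eif3d and Eif1ad it is Gm17638 and Banf1, on the opposite strand. How the authors' counting treated reads from such stretches is uncertain, and so are the values of these genes. The strand setting of the counting is not given in the sources used here, so reads of an overlapping antisense gene cannot be told apart from a member's own.

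The tissue labels were borne out by marker genes. Nociceptor markers (Scn10a, Calca, Trpv1, Tac1 and Prph) summed to 1.36 to 5.57 CPM, counts scaled to the library's gene reads, in the paw libraries, against 1944 to 4200 in the DRG libraries, and keratinocyte markers (Krt5, Krt14, Krt10, Krt1 and Lor) to at least 25273 in paw, against at most 66.5 in DRG. Gene reads numbered 21.8 to 26.5 M in PRL_Sh libraries, 6.87 to 13.5 M in the other paw libraries and 8.99 to 13.3 M in the other DRG libraries. Male paw Veh replicate 2 had the fewest. Skeletal muscle markers varied widely among paw libraries, from 483.4 to 37120 CPM summed over 10 genes, and were highest in PRL_Sh. Among genes outside the family, Nnt, a mitochondrial transhydrogenase of which C57BL/6J mice carry a known deletion, was higher with PRL in both tissues, by 1.86 on the log2 scale in paw and 1.19 in DRG (average of the sexes). Wdfy1, an adaptor of endosomes, was higher by 1.09 and 1.47. With Gabra2, a subunit gene of the GABA-A receptor, all 3 genes were higher with PRL in DRG of each sex. Their part in the results below was not tested. A difference in genetic background between PRL and Veh mice was not tested either.

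Reads of the family made up 0.615% to 0.816% of gene reads in paw libraries and 0.534% to 0.646% in DRG libraries. Levels of different genes are compared here only as CPM per kilobase of mRNA, with the median length of a gene's coding transcripts. In the 6 Veh paw libraries the highest level by this measure was that of Eif5a, which helps ribosomes through difficult peptide bonds and on which hypusine is made, at 213 ± 15.7 CPM per kb (SD). Eif4g2, a relative of eIF4G that does not bind eIF4E, followed at 209 ± 11.2. Those levels differed by less than their spread. In the 6 Veh DRG libraries Eif4a2 and Eif4g2 led with 173 ± 10.7 and 167 ± 9.09 CPM per kb, again within their spread. With the longest or the shortest coding transcript, Eif5a was at 190 or 353 and Eif4g2 at 151 or 340 CPM per kb in paw. In DRG, Eif4a2 was at 141 or 311 and Eif4g2 at 121 or 272, so these ranks depend on the length chosen. Eif4a2 is also among the members that share more than 10% of their 50-base stretches with other genes (13.6%). At the low end, Eif4e1b, an eIF4E form known from oocytes, had 43 reads in all 30 libraries together and was left out of the tests, so that 55 members were tested in every comparison. Among the members tested, Eif4ebp1, which encodes the best-known 4E-binding protein, was near the bottom in DRG at 1.81 ± 0.44 CPM per kb.

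**Figure D1:**
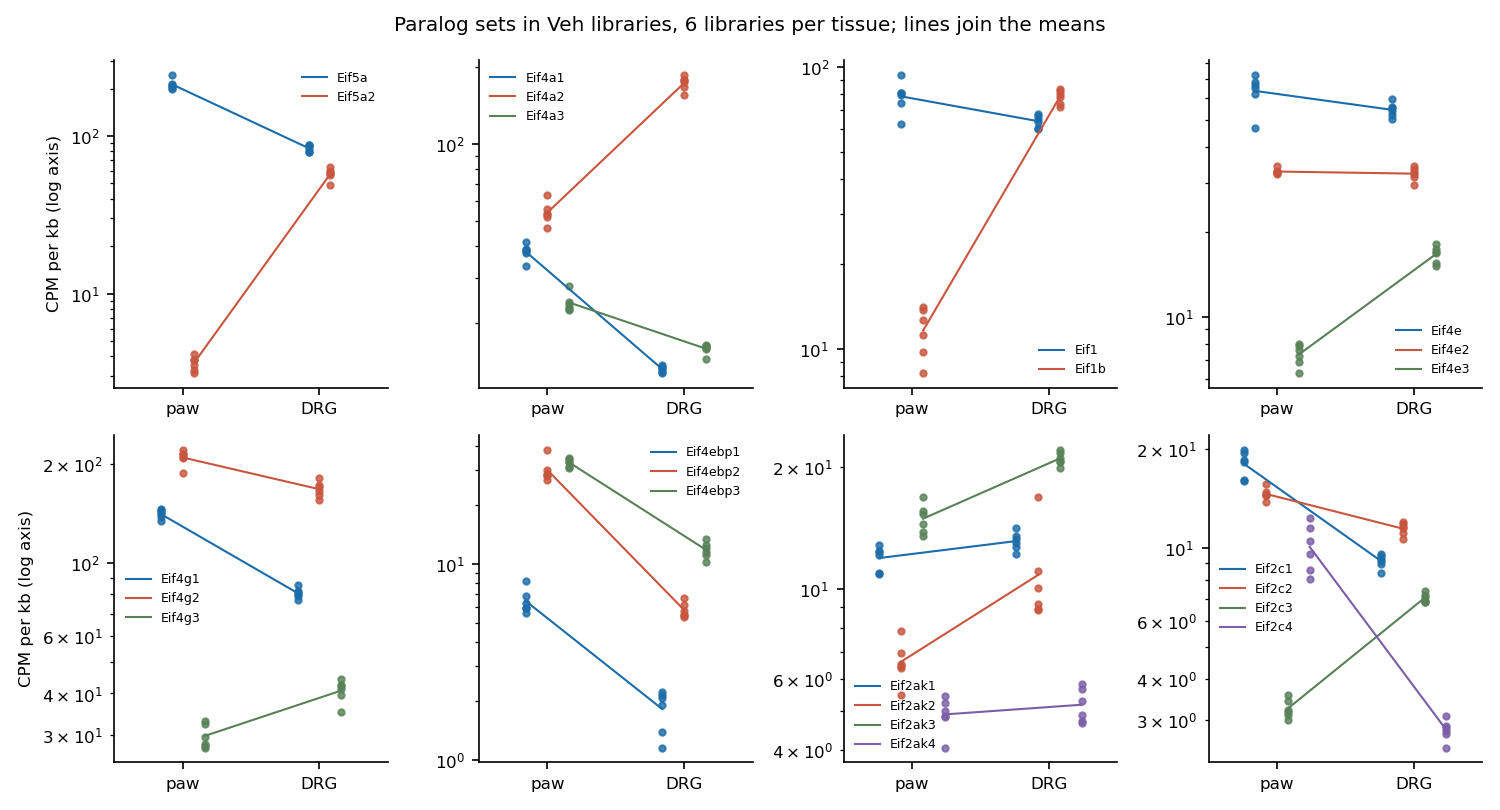
CPM per kilobase of mRNA, on log axes, of 8 sets of related members in the 6 Veh paw and 6 Veh DRG libraries, with a line joining the 2 tissue means of each gene. Eif5a2, Eif4a2, Eif1b, Eif4e3 and Eif2c3 are lower in paw than in DRG, while Eif5a, Eif4a1, Eif4ebp2 and Eif2c4 are higher in paw.

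Paw and DRG differed in nearly the whole family. Of 55 members, 53 passed the threshold (96.4%, against 85.8% of all 15598 genes tested) in edgeR's quasi-likelihood test over the 12 Veh libraries, with Benjamini-Hochberg adjustment over all genes and a threshold of 0.05. Paw was higher for 44 of them and lower for 9, whereas genes as a whole were split evenly, 43.1% higher and 42.7% lower in paw. The median log2 fold change of paw over DRG was 0.59 for the members and 0.01 for all genes. These are shares of bulk RNA, in which fewer cells of a type and less RNA per cell cannot be told apart.

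The 9 members lower in paw include one partner of several pairs. Eif5a2, the relative of Eif5a with a narrow tissue range, had 15.8, 18.3 and 20.7 CPM (lowest, median and highest) in paw, against 246, 292 and 322 CPM in DRG (log2 fold change -4.00 ± 0.08 SE, edgeR adjusted p = 6.9e-14). Eif5a itself ran the other way, at 256, 269 and 312 CPM in paw, against 101, 109 and 112 in DRG (1.35 ± 0.06, edgeR adjusted p = 1.4e-10). The ratio of Eif5a2 to Eif5a per kilobase was thus 0.0167 in female and 0.0174 in male Veh paw, against 0.653 in female and 0.722 in male Veh DRG. Neither gene overlapped between tissues.

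Eif1b, a close relative of the start codon factor eIF1, had 8.53, 12.4 and 14.6 CPM in paw, against 74.5, 81.9 and 86.3 CPM in DRG (-2.76 ± 0.11, edgeR adjusted p = 7.4e-11). Eif1 differed far less, at 83.1, 106 and 123 CPM in paw, against 79.6, 85.4 and 89.7 in DRG, with overlapping libraries (0.29, edgeR adjusted p = 0.0016). Per kilobase, Eif1b was above Eif1 in all 6 Veh DRG libraries, with ratios from 1.10 to 1.38, and far below it in the Veh paw libraries, with ratios from 0.104 to 0.174. By counts the mean ratio was 0.902 in female and 1.01 in male Veh DRG, so the order in DRG depends on the length correction. Eif1 shares 19.2% of its 50-base stretches with other genes, against 4.20% for Eif1b. Eif4a2, a form of the eIF4A helicase, had 103, 117 and 139 CPM in paw, against 342, 388 and 409 in DRG (-1.68 ± 0.07, edgeR adjusted p = 1.1e-10). Its relative Eif4a1 had 59.1, 67.9 and 73.7 CPM in paw, against 22.7, 23.3 and 24.2 in DRG (1.52 ± 0.06, edgeR adjusted p = 3.0e-11). Eif4a3, which serves the exon junction complex rather than initiation, was also higher in paw (0.59). Eif4a2 shares 13.6% of its 50-base stretches with other genes, Eif4a1 28.4% and Eif4a3 16.5%. Genes annotated over Eif4a2 include Snord2 and Snora81.

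Among the cap-binding genes, Eif4e3, a cap-binding relative of eIF4E, had 15.9, 18.7 and 20.1 CPM in paw, against 38.0, 42.4 and 45.7 in DRG (-1.19 ± 0.08, edgeR adjusted p = 7.8e-09). Eif4e itself was higher in paw by 0.22 (edgeR adjusted p = 0.035), with overlapping libraries. That call was lost in 8 of 17 alternatives, each of which left out 1 library: Female paw Veh replicate 1 or 3, Male paw Veh replicate 2 or 3, Female DRG Veh replicate 1 or 3, or Male DRG Veh replicate 1 or 3 (highest edgeR adjusted p = 0.097). For Eif4e2, which encodes a repressive cap-binding protein, the test found no difference (0.03, edgeR adjusted p = 0.59). Of the scaffolds, Eif4g1 and Eif4g2 were higher in paw (0.80 and 0.32) and Eif4g3 lower (-0.46).

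All members of the list of 4E-binding proteins and their transporter were higher in paw, 4 of 4, with a median log2 fold change of 1.66. Eif4ebp2, described as the main 4E-binding protein of brain, had 96.9, 103 and 137 CPM in paw, against 19.2, 20.2 and 24.1 in DRG (2.37 ± 0.08, edgeR adjusted p = 1.5e-11). This was the widest difference towards paw in the family. Eif4ebp1 had 11.1, 12.2 and 16.3 CPM in paw, against 2.30, 3.97 and 4.44 in DRG (1.85 ± 0.16). Eif4ebp3 was higher by 1.48 and Eif4enif1, which carries eIF4E into the nucleus, by 0.61.

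The subunit genes of the large complexes all stood higher in paw. All 13 genes of eIF3, the scaffold of the small subunit, passed, from 0.41 for Eif3c to 1.33 for Eif3h, with a median of 0.68. The list of eIF2 and alternative tRNA delivery passed in 4 of 4 (median 0.91) and that of eIF2B in 5 of 5 (median 0.54), where Eif2b1, the regulatory alpha subunit, was highest at 1.28. Eif6, which keeps the large ribosomal subunit apart from the small one, had 75.2, 94.97 and 103 CPM in paw, against 21.5, 23.4 and 26.4 in DRG (1.999 ± 0.08, edgeR adjusted p = 3.9e-11). Eif1ad, which encodes a protein with an eIF1A-like domain, had 71.5, 75.6 and 81.5 CPM in paw, against 19.7, 20.5 and 25.5 in DRG (1.82 ± 0.06). Neither gene overlapped between tissues.

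The eIF2 kinases ran against this trend, as none of the 4 was higher in paw and 3 were lower. Eif2ak3 (PERK, the kinase of endoplasmic reticulum stress) was lower by 0.49 on the log2 scale in paw, with 36.8, 40.4 and 45.7 CPM in paw, against 53.9, 56.7 and 59.8 in DRG. Eif2ak2 (PKR, the kinase activated by double-stranded RNA) had 23.6, 28.1 and 34.0 CPM in paw, against 38.2, 41.5 and 72.6 in DRG (-0.71 ± 0.14, edgeR adjusted p = 0.00045). The highest DRG value belonged to Female DRG Veh replicate 1, and the paw and DRG libraries did not overlap. Eif2ak1, the haem-regulated kinase, was lower by 0.14, with overlapping libraries (edgeR adjusted p = 0.026). That call was lost in 5 of 17 alternatives, without Female paw Veh replicate 1 or 2, Male paw Veh replicate 3, Female DRG Veh replicate 2 or Male DRG Veh replicate 1 (highest edgeR adjusted p = 0.086). Eif2ak4 (GCN2, the amino acid sensor) did not pass (-0.07, edgeR adjusted p = 0.44).

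Among the Argonautes the order of levels differed between tissues in the Veh libraries. Per kilobase, Eif2c1, Eif2c2, Eif2c4 and Eif2c3 stood at 18.0 ± 1.65, 14.6 ± 0.63, 10.1 ± 1.66 and 3.25 ± 0.21 CPM per kb in paw. In DRG the order was Eif2c2 at 11.5 ± 0.48, Eif2c1 at 9.14 ± 0.42, Eif2c3 at 7.05 ± 0.21 and Eif2c4 at 2.79 ± 0.20 CPM per kb. Neighbours in either order were further apart than their SDs. By CPM without the length correction, Eif2c2 led in paw, with a median of 200 CPM against 133 for Eif2c1. In DRG Eif2c3, with a median of 109 CPM, then stood above Eif2c1 at 66.6. Both orders thus depend on the length correction. Eif2c3 was lower in paw (-1.12 ± 0.04, edgeR adjusted p = 2.8e-11) and Eif2c4 higher (1.84 ± 0.07, edgeR adjusted p = 2.5e-11).

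The mRNA-kit libraries gave a further comparison of the tissues, with 3 PRL_Sh libraries each. Here 48 of 55 members passed (87.3%, against 80.2% of 15735 genes), 39 higher and 9 lower in paw (against 39.9% and 40.2% of all genes), with a median of 0.54. For 49 members the libraries did not overlap, against 83.3% of all genes. Of the members, 46 passed with both kinds of library, 45 of them in the same direction. The same overlap was not counted for all genes, of which 85.8% passed in the Veh and 80.2% in the PRL_Sh comparison. Treatment and sex also differ between the 2 comparisons, as Veh libraries are of both sexes and PRL_Sh libraries of females. Eif5a2 had 14.4, 11.9 and 11.4 CPM in paw, against 195, 237 and 201 in DRG (-4.07), and Eif1b had 29.7, 26.0 and 28.3 CPM in paw, against 120.1, 115 and 117 in DRG (-2.07). Eif2c3 was the one member that passed in opposite directions: it had 12.1, 9.71 and 14.01 CPM in paw, against 2.72, 2.79 and 3.20 in DRG (2.03, edgeR adjusted p = 2.5e-05). Eif2ak2 had 27.3, 38.9 and 27.7 CPM in paw, against 21.6, 33.0 and 30.2 in DRG, and did not pass (0.15, edgeR adjusted p = 0.51).

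**Figure D2:**
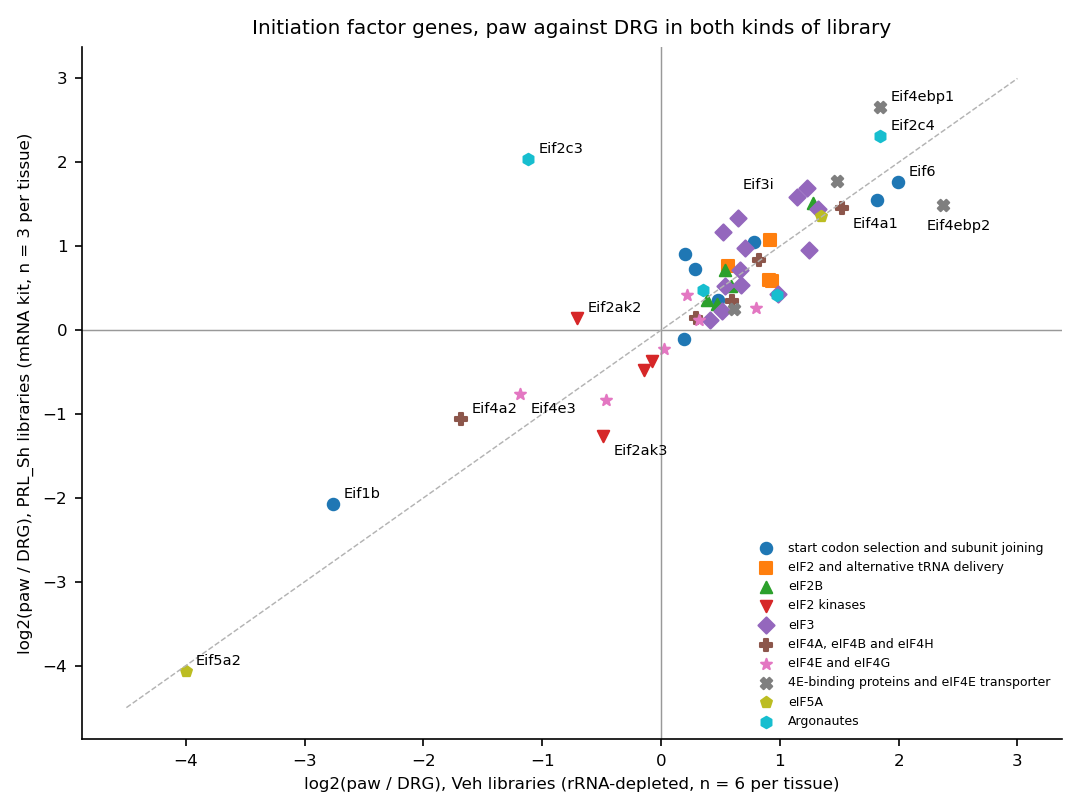
Log2 fold change of paw over DRG for each of 55 members in Veh libraries (x axis, 6 per tissue) and in PRL_Sh libraries (y axis, 3 per tissue), with symbols for the role of the gene and a dashed line where both are equal. Most points lie in the upper right, Eif5a2, Eif1b, Eif4a2 and Eif4e3 in the lower left, and Eif2c3 alone stands far into the upper left.

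Genes that work beside the factors were counted in 4 lists, to be read against the 85.8% of all genes that passed between tissues, 43.1% higher and 42.7% lower in paw. In Veh libraries, 9 of 12 elongation and termination genes were higher in paw and 3 lower, including Eef1a1, the general carrier of aminoacyl-tRNA (1.78), and Gspt2, a release factor form (-3.14). Of 16 genes of mTORC1 and MNK signalling, 5 were higher and 10 lower, with Pdcd4, an inhibitor of eIF4A, at 1.97 and Deptor, an inhibitor within the mTOR complexes, at -1.28. Of 12 stress response genes downstream of eIF2 phosphorylation, 9 were higher and 3 lower. The fourth list, poly(A)-binding and cap-binding partners, had 5 higher and 6 lower of 14, with Cyfip2, which encodes a protein that binds FMRP, lowest at -3.41.

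Prolactin was set against vehicle in paw, the injected tissue, in each sex. In paw 8 of 55 members passed for the average of the sexes (14.5%, against 24.9% of 14721 genes), 2 higher and 6 lower with PRL (against 14.9% and 10.0% of all genes). In male paw 6 passed (10.9%, against 22.4%), 2 higher and 4 lower (against 12.3% and 10.1%), and in female paw 1 passed, lower (against 7.55% of all genes either way, 6.54% higher and 1.01% lower). The share of members past the threshold, in either direction together, was thus below that of all genes in each case. The shortfall lay mainly in the rises. Eif2ak2, Eif4e3 and Eif2c3 rose in at least one of these comparisons, and Eif1ad, Eif2b1, Eif2a, Eif3e, Eif3h, Eif4ebp3 and Eif2c4 fell. The median log2 fold change of PRL over Veh, average of the sexes, was -0.09 for the members and 0.01 for all genes. With RLE in place of TMM scaling, 2 members rose and 11 fell for the average of the sexes, and with DESeq2 2 rose and 13 fell. Keratinocyte markers summed to 25273 to 34688 CPM in male PRL paw, against 41316 to 49477 in male Veh paw, and 2 of the 5 fell there. In females they summed to 28274 to 38702 CPM with PRL, against 29792 to 40217 with Veh. The part of epidermal content in the members' falls was not tested.

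Eif2ak2 had the largest rise. It had 40.0, 40.9 and 33.9 CPM in female PRL paw (replicates 1 to 3), against 27.5, 33.8 and 29.2 in female Veh paw. In males it had 42.5, 48.0 and 49.9 CPM with PRL, against 23.4, 27.0 and 27.8 with Veh. The male groups did not overlap. In females the 2 groups were barely apart on this TMM-scaled measure (33.9 CPM in PRL replicate 3, against 33.8 in Veh replicate 2), and they overlapped when reads were scaled to gene reads alone (35.02 against 35.31 CPM in the same libraries). The log2 fold change was 0.85 ± 0.12 in males (edgeR adjusted p = 0.000632), 0.34 ± 0.12 in females (edgeR adjusted p = 0.114) and 0.60 on average, with a 95% interval of 0.41 to 0.78 (edgeR adjusted p = 0.000359). The difference between the sexes, female minus male, was -0.50 and did not pass (edgeR adjusted p = 0.274).

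Eif2ak2 is known as an interferon-induced gene, so the levels of other such genes are given beside it. A list of 15 interferon-induced genes summed to 193.6 to 373.1 CPM in female PRL paw, against 123.6 to 138.7 in female Veh paw, and to 322.5 to 416.1 in male PRL paw, against 85.9 to 111.0 in male Veh paw. Of the 15 genes, 12 rose in females and 15 in males, and none was at 0 in any library. In PRL_Sh paw the list summed to 378.7 to 571.7 CPM, with Eif2ak2 at 27.1 to 38.8 CPM scaled to gene reads. On that measure Eif2ak2 had 28.5 to 35.3 CPM in female Veh paw. In PRL_Sh DRG the sums were 380.3 to 509.4 CPM, with Eif2ak2 at 21.8 to 32.9. Female PRL DRG had lower sums, 298.9 to 348.8 CPM, and more Eif2ak2, 39.9 to 43.2. Within each PRL_Sh group, replicate 2 was highest in both. Kit and group cannot be told apart in PRL_Sh. The 6 macrophage markers summed to 545.9 to 835.1 CPM in female PRL paw, against 208.5 to 271.7 in Veh, and to 588.1 to 727.8 in male PRL paw, against 242.5 to 368.9 in Veh, and 6 rose in females and 5 in males. Of the 5 fibroblast markers 3 rose in each sex, with sums of 16453 to 23952 CPM in female PRL paw, against 6286 to 8305 in Veh, and 18525 to 29829 CPM in male PRL paw, against 9426 to 15241 in Veh. Whether these lists have a part in the member results was not tested. The 300 bases around the start of Eif2ak2 hold a core of the interferon-stimulated response element, searched on both strands as GAAA, 2 bases of any kind and GAAA again. It occurs in 3.44% of 32851 RefSeq promoters (GRCm38.p6, from 250 bases before to 50 after the start) and in those of 3 of the 44 members with an entry, Eif2ak2, Eif2s1 and Eif3a. In Eif2ak2 it begins 18 bases after the start. Of the 2 other motifs searched, TTC, 3 bases of any kind and GAA, the letters of a STAT site, occur in 8.298% of promoters and in those of 5 members, Eif2ak2, Eif2ak3, Eif3c, Eif3g and Eif4e, in Eif2ak2 at position -178 from the start. CACGTG, an E-box, occurs in 7.15% of promoters and in those of 10 members. The 30 bases around the first match in Eif2ak2 are shown, on the minus strand at chr17:78882535-78882564 of GRCm38.p6, with the match in capitals.
Eif2ak2: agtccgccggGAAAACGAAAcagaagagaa
A match of letters is a description and no measured binding site.

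**Figure D3:**
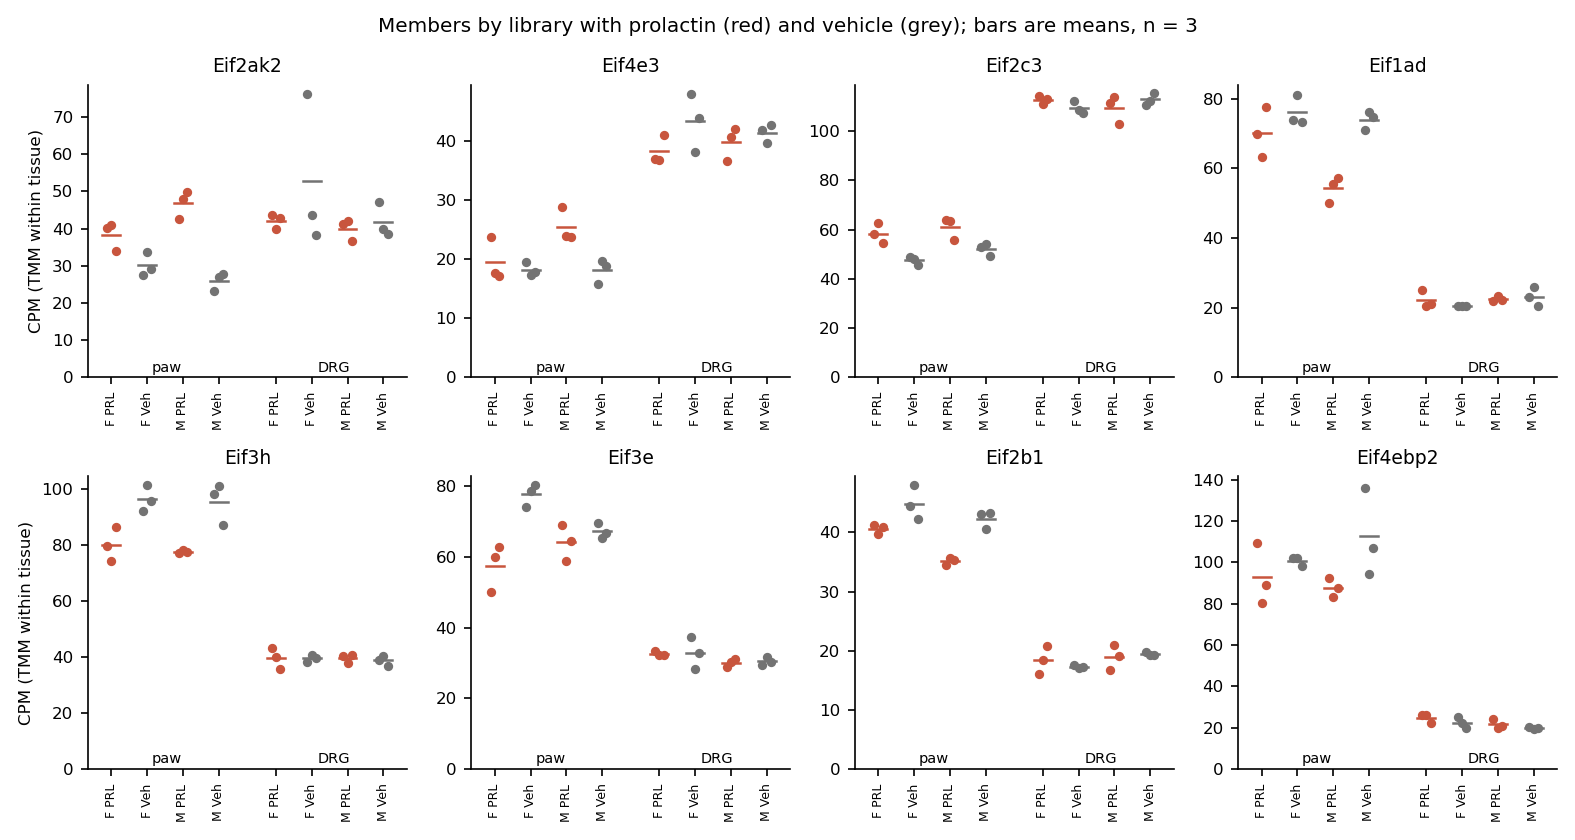
CPM per library of 8 members in PRL (red, left of each pair) and Veh (grey) libraries, 3 per group, for female and male paw on the left of each panel and female and male DRG on the right. In paw Eif2ak2 lies clearly higher with PRL in males and just above Veh in females, and Eif3h and Eif2b1 lie lower, while in DRG one Eif2ak2 library, Female DRG Veh replicate 1, stands above the rest at 76.1 CPM.

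The other rises were smaller. Eif2c3 had 58.0, 62.7 and 54.3 CPM in female PRL paw, against 48.8, 48.0 and 45.7 in Veh, and 63.9, 63.6 and 55.8 CPM in male PRL paw, against 52.9, 54.2 and 49.4 in Veh. The groups did not overlap in either sex, and the average rise was 0.26 ± 0.06 (edgeR adjusted p = 0.00892). Eif4e3 had 28.8, 23.8 and 23.8 CPM in male PRL paw, against 15.7, 19.6 and 18.8 in Veh (0.50 ± 0.15, edgeR adjusted p = 0.0301). In females it had 23.7, 17.7 and 17.2 CPM with PRL, against 19.5, 17.3 and 17.8 with Veh, which overlap (0.10, edgeR adjusted p = 0.751). The male call for Eif4e3 was lost in 7 of 19 alternatives, among them when any one of the 6 male paw libraries was left out.

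Of the 13 eIF3 genes, 11 were lower with PRL in paw on average and 2 passed, Eif3h and Eif3e (median of the 13 genes -0.14). Eif3h had 79.8, 74.4 and 86.4 CPM in female PRL paw, against 92.1, 101.5 and 95.8 in Veh, and 77.3, 78.4 and 77.5 CPM in male PRL paw, against 98.4, 101 and 87.2 in Veh. The groups were apart in both sexes, and Eif3h fell by 0.28 on the log2 scale on average (edgeR adjusted p = 0.00515), by 0.30 in males (edgeR adjusted p = 0.0259) and by 0.27 in females, where it did not pass (edgeR adjusted p = 0.0867). The male call was lost without Male paw PRL replicate 1 or 3 or Male paw Veh replicate 1 or 2. Eif3e was the one member past the threshold in female paw, at 50.0, 60.0 and 62.8 CPM with PRL, against 74.1, 78.7 and 80.3 with Veh (-0.43 ± 0.10, edgeR adjusted p = 0.0189). In male paw Eif3e had 69.1, 58.8 and 64.5 CPM with PRL, against 69.7, 65.5 and 66.9 with Veh, which overlap (-0.07, edgeR adjusted p = 0.632). The difference between the sexes in Eif3e was -0.36 and did not pass (edgeR adjusted p = 0.323). No member passed in female paw without Female paw PRL replicate 1, Veh replicate 2 or Veh replicate 3, and 4 members passed without PRL replicate 3.

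For start codon selection, 7 of 8 genes were lower with PRL in paw and Eif1ad passed. Eif1ad had 50.1, 55.4 and 57.2 CPM in male PRL paw, against 70.9, 76.2 and 74.8 in male Veh paw (-0.45 ± 0.09, edgeR adjusted p = 0.00603). In females it had 69.9, 63.2 and 77.6 CPM with PRL, against 73.9, 81.0 and 73.4 with Veh, which overlap (-0.12, edgeR adjusted p = 0.535). The average fell by 0.28 on the log2 scale (edgeR adjusted p = 0.00872). Eif1ad shares 13.2% of its 50-base stretches with Banf1, a gene that overlaps it on the opposite strand.

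The 4 genes of eIF2 and alternative tRNA delivery were all lower with PRL in paw on average, from -0.22 to -0.18, and 1 passed. Eif2a, which encodes a factor that can deliver tRNA without eIF2, had 48.2, 49.1 and 50.5 CPM in female PRL paw, against 54.0, 56.1 and 59.0 in Veh. In male paw it had 50.8, 49.9 and 54.9 CPM with PRL, against 56.5, 65.0 and 55.4 with Veh. The groups did not overlap in either sex, by a small margin in males, and the average fell by 0.19 on the log2 scale (edgeR adjusted p = 0.0377). Eif2s1, the alpha subunit that the eIF2 kinases phosphorylate, averaged -0.18 (edgeR adjusted p = 0.0768) and did not pass. The call for Eif2a was lost in 8 of 18 alternatives. Among them were those without any one of 7 paw libraries: Female paw PRL replicates 1 and 2, Female paw Veh replicates 2 and 3, Male paw PRL replicates 1 and 2 and Male paw Veh replicate 2.

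Of the eIF2B genes only Eif2b1 passed among the 5. It had 34.5, 35.7 and 35.4 CPM in male PRL paw, against 43.1, 40.5 and 43.3 in Veh (-0.27 ± 0.08, edgeR adjusted p = 0.0302). That call was lost in 7 of 19 alternatives, among them without Male paw PRL replicate 1 or 3 or Male paw Veh replicate 1 or 3. In female paw Eif2b1 had 41.2, 39.7 and 40.9 CPM with PRL, against 44.4, 47.9 and 42.2 with Veh (-0.14, edgeR adjusted p = 0.329). By TMM-scaled CPM the PRL libraries lay below the Veh libraries in both sexes. Scaled to gene reads alone the female groups overlapped, with 43.5 CPM at most in PRL and 43.3 at least in Veh. The average of the sexes fell by 0.21 (edgeR adjusted p = 0.018), a call lost without Female paw Veh replicate 2. The other eIF2 kinases, Eif2ak1, Eif2ak3 and Eif2ak4, did not pass in paw.

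Among the 4E-binding proteins, none passed for the average of the sexes. Eif4ebp3 fell in male paw, with 18.8, 19.8 and 18.1 CPM with PRL, against 24.4, 24.2 and 22.5 with Veh (-0.32 ± 0.10, edgeR adjusted p = 0.0453), while in females 25.8, 20.8 and 24.6 CPM with PRL overlapped 25.04, 23.1 and 25.2 CPM with Veh. Most of the 50-base stretches of Eif4ebp3 also occur in AC115631.1, a gene annotated over the same place. The male call was lost in 11 of 19 alternatives, among them without any one of the 6 male paw or 3 female Veh paw libraries. Eif4ebp1 was higher with PRL by 0.31 on average and did not pass (edgeR adjusted p = 0.104). The eIF4A, eIF4B and eIF4H genes, the eIF4G genes and the eIF5A pair had no member past the threshold in paw in any PRL comparison.

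Eif2c4 was the Argonaute gene that fell. It had 53.6, 49.9 and 68.9 CPM in female PRL paw, against 67.5, 80.2 and 73.1 in Veh, and 42.0, 48.8 and 39.5 CPM in male PRL paw, against 62.3, 51.4 and 55.2 in Veh. By TMM-scaled CPM the groups overlapped in females and not in males, and the average was -0.37 ± 0.09 (edgeR adjusted p = 0.0147). Scaled to gene reads alone the male groups overlapped too, with 48.5 CPM at most in PRL and 48.1 at least in Veh.

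In male paw the count of 6 rested on several libraries. It was 2 without Male paw PRL replicate 1 or replicate 3, and 3 without Male paw Veh replicate 1 or replicate 3. Eif2ak2 and Eif1ad passed in each of these settings. Without Male paw Veh replicate 2, the library with the fewest gene reads, 5 members passed in male paw and 10 for the average of the sexes. With RLE scaling 2 members rose and 6 fell in male paw, and with DESeq2 2 rose and 8 fell.

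In DRG no member passed in either sex or on average, among 14705 genes tested, of which 0.653% passed in females (0.292% higher and 0.36% lower), 0.517% in males (0.286% higher and 0.231% lower) and 3.6% for the average of the sexes (2.14% higher and 1.47% lower). At an unadjusted p under 0.05 there were 3 members in females, 4 in males and 4 for the average, against 1766, 2189 and 3168 of all 14705 genes, and DESeq2 called 0, 1 and 1 in the same order. The member called by DESeq2 was Eif4g2 in males and Eif1b for the average. Log2 fold changes ran from -0.32 to 0.22 in females and from -0.28 to 0.21 in males, with medians of 0.0002 and -0.02. The 95% intervals of single members reached from -0.74 to 0.62 in females and from -0.50 to 0.78 in males, so changes of that size could have gone unseen in these libraries. In females 7 members had groups that did not overlap (against 15.5% of all genes) and in males 5 (against 19.3%).

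The members with the smallest p in DRG were as follows. Eif2c1 had 72.8, 77.5 and 75.3 CPM in female PRL DRG, against 67.9, 66.2 and 68.5 in Veh (0.16, edgeR adjusted p = 0.31). Eif4g2 had 865, 938 and 899 CPM in male PRL DRG, against 1030, 1003 and 982 in Veh (-0.16, edgeR adjusted p = 0.162). These groups do not overlap, and the differences are small. Eif1b had 61.3, 80.6 and 66.4 CPM in male PRL DRG, against 85.3, 81.9 and 84.9 in Veh, and 75.0, 70.8 and 69.3 CPM in female PRL DRG, against 80.2, 83.1 and 74.7 in Veh. Its average log2 fold change was -0.21 (edgeR adjusted p = 0.0744). It passed without Male DRG PRL replicate 2, its highest male PRL library, both in males and for the average. Eif2ak2 in DRG had 43.8, 39.8 and 42.8 CPM in female PRL, against 76.1, 43.6 and 38.3 in female Veh. Female DRG Veh replicate 1, with the 76.1 CPM, also had the highest sum of the interferon list among all libraries, at 1120 CPM.

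**Figure D4:**
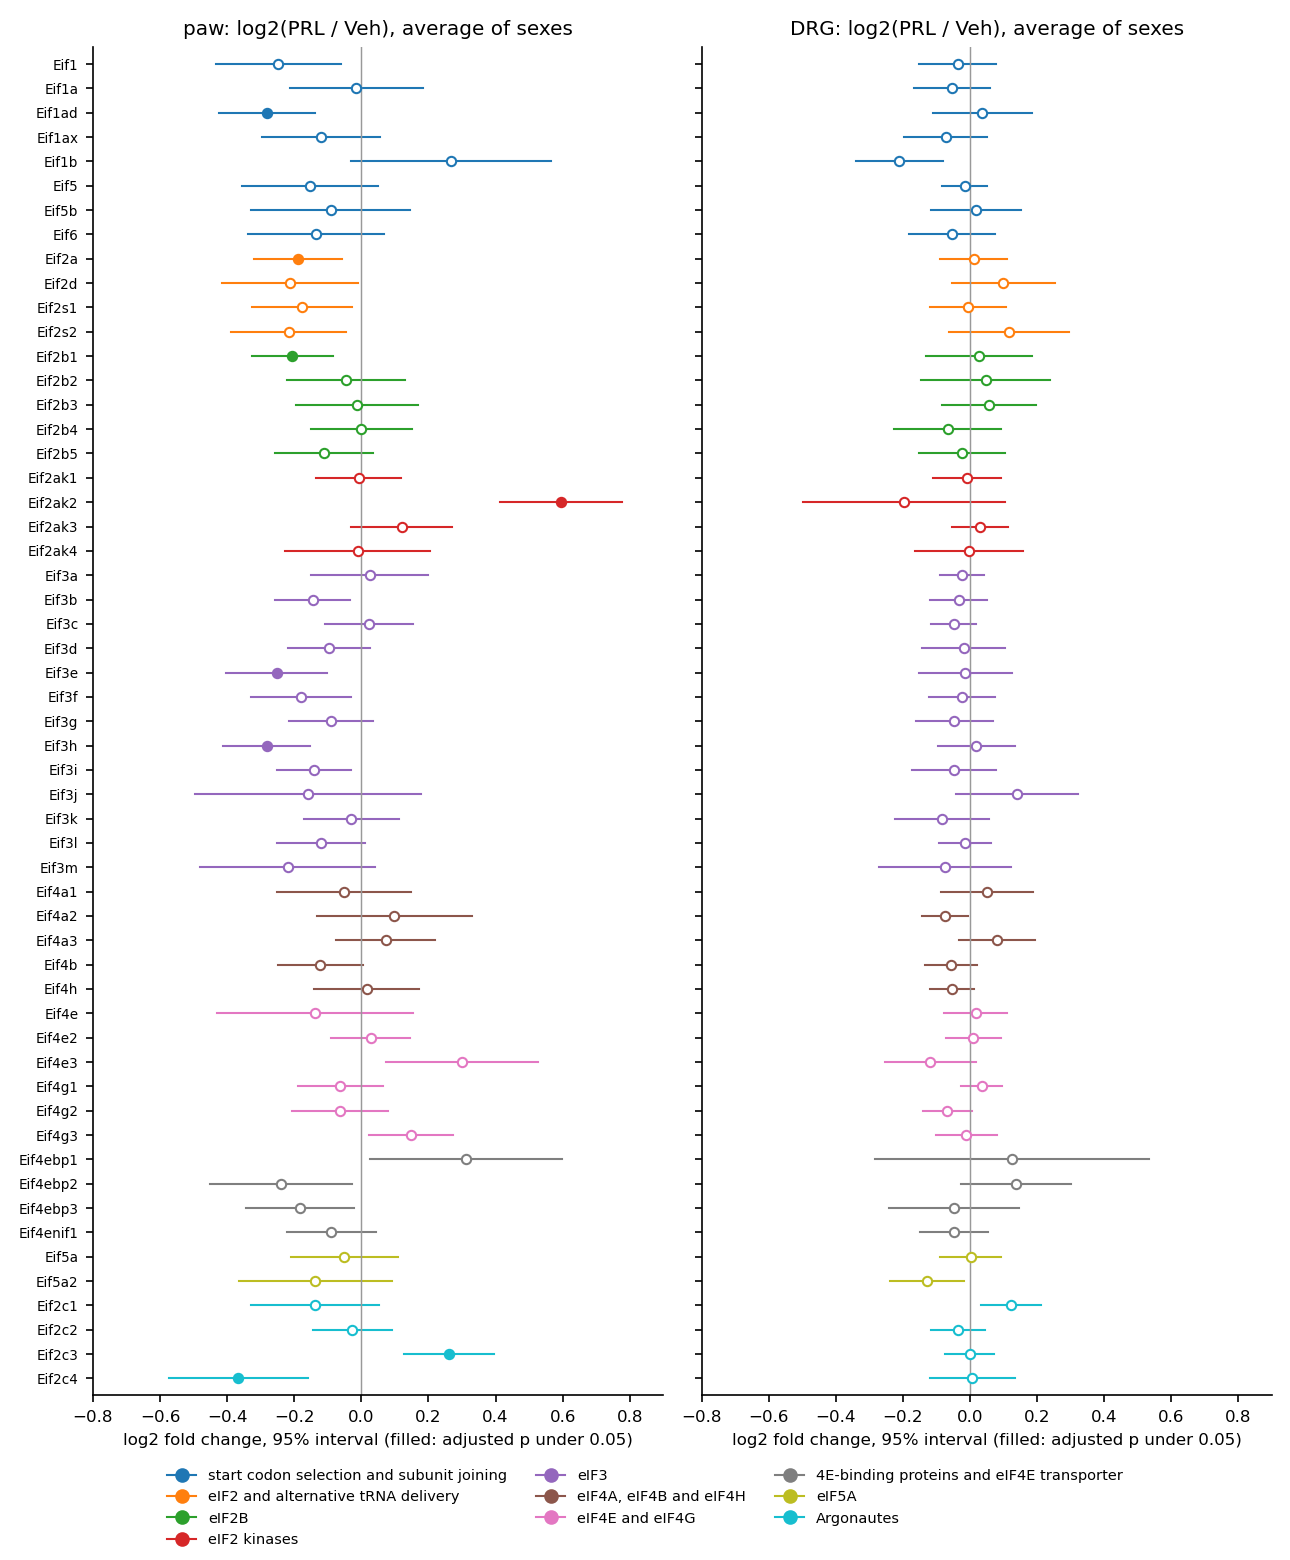
Log2 fold change of PRL over Veh, average of the sexes, for 55 members in paw (left) and in DRG (right), with 95% intervals as bars and filled points where the edgeR adjusted p is under 0.05. Paw has 8 filled points, Eif2ak2 farthest to the right at 0.60 and Eif2c4 farthest to the left at -0.37, and DRG has none.

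Whether PRL acted on the members differently in the tissues was tested as a difference of responses, paw minus DRG, over the 24 rRNA-depleted libraries. It passed for 8 of 55 members (14.5%, against 14.9% of 15949 genes), 4 in each direction (against 9.8% higher and 5.13% lower). With RLE scaling 4 were higher and 6 lower, and with DESeq2 4 higher and 7 lower. The difference was 0.81 for Eif2ak2 (edgeR adjusted p = 0.00275), 0.49 for Eif1b, 0.44 for Eif4e3 and 0.28 for Eif2c3. It was -0.28 for Eif3h, -0.30 for Eif1ad, -0.36 for Eif2c4 and -0.36 for Eif4ebp2. Without Female DRG Veh replicate 1, in which Eif2ak2 was high, the difference for Eif2ak2 was 0.64 and passed. The count was 4 without Female paw Veh replicate 2, Male DRG Veh replicate 3 or Male paw PRL replicate 1, and 5 without Female DRG PRL replicate 2, Female paw PRL replicate 2, Male DRG PRL replicate 3 or Male DRG Veh replicate 1. Over 30 alternatives, the call was lost in 5 for Eif1ad, 12 for Eif1b, 15 for Eif2c4 and 20 for Eif4ebp2, and in none for Eif2ak2, Eif4e3, Eif2c3 and Eif3h. Eif1b and Eif4ebp2 passed in neither tissue alone: Eif4ebp2 had 92.5, 83.3 and 87.5 CPM in male PRL paw, against 136, 94.6 and 107 in Veh, and 24.3, 19.97 and 21.0 CPM in male PRL DRG, against 20.3, 19.4 and 19.7 in Veh.

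Sex made no difference that passed the test. Female and male Veh libraries differed for 0 of 55 members in paw (against 0.109% of all genes, 0.0408% higher and 0.0679% lower in females) and for 0 in DRG (against 0.0544%, 0.0204% higher and 0.034% lower), with 3 and 1 members at an unadjusted p under 0.05, against 1193 of 14721 and 1005 of 14705 genes, and 0 members by DESeq2 in both. The response to PRL, female minus male, passed for 0 members in paw (against 0.00679%) and 0 in DRG (against 0), with 3 and 1 members at an unadjusted p under 0.05, against 1924 and 537 of all genes, and 0 members by DESeq2. In paw these differences ran from -0.50 for Eif2ak2 to 0.33 for Eif1ad. The interval for Eif2ak2 was -0.87 to -0.14 and that for Eif1ad 0.05 to 0.62.

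The genes that work beside the factors were read in the same fits. Of all genes, 22.4% passed in male paw, 12.3% higher and 10.1% lower. In male paw 2 of 12 stress response genes rose, Atf5 (0.82, edgeR adjusted p = 0.00334) and Ddit3 (1.05, edgeR adjusted p = 0.0215), both transcription factors induced when eIF2 is phosphorylated, and 1 fell, Asns, asparagine synthetase (-0.45, edgeR adjusted p = 0.0154). Atf5 had 72.05, 64.5 and 68.6 CPM in male PRL paw, against 42.5, 38.3 and 34.98 in Veh. Ddit3 was low, at 9.94, 6.44 and 6.30 CPM with PRL, against 2.59, 4.36 and 4.16 with Veh. The PRL libraries lay above the Veh libraries for both genes. In the mTORC1 and MNK list, 2 of 16 fell in male paw, Pdcd4 (-0.70, edgeR adjusted p = 0.00334) and Ddit4, an inhibitor of mTORC1 (-0.78, edgeR adjusted p = 0.00402). Pdcd4 had 141, 169 and 163 CPM in male PRL paw, against 259.9, 252 and 256 in Veh. Among 14 poly(A)-binding and cap-binding partners Pabpc4 rose (0.91) and Cyfip2 and Ddx3x, an RNA helicase, fell (-0.76 and -0.46). No gene of the 12 in the elongation list passed in male paw, and no gene of the 4 lists passed in female paw, where 7.55% of all genes did. For the average of the sexes, where 14.9% of all genes were higher and 10.0% lower, Mknk1, a kinase of eIF4E, rose by 0.36, and Eef2, the translocation factor, and Rictor, a subunit of mTORC2, fell by 0.29 and 0.21.

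In DRG Ddit4 was the gene of these lists that fell in females, where 0.36% of all genes were lower. It had 37.2, 48.9 and 54.9 CPM in female PRL DRG, against 92.8, 97.8 and 92.8 in Veh (-1.01 ± 0.15, edgeR adjusted p = 0.00823). In male DRG it had 37.1, 49.3 and 54.3 CPM with PRL, against 66.2, 78.9 and 88.7 with Veh, which did not pass (-0.73, edgeR adjusted p = 0.0599), and the average of the sexes was -0.87 (edgeR adjusted p = 0.000898). The PRL libraries lay below all Veh libraries of their sex. Deptor fell for the average by 0.20. Fibroblast markers summed to 4806 to 6775 CPM in female PRL DRG, against 2819 to 4118 in Veh, and to 4001 to 4783 CPM in male PRL DRG, against 2205 to 3054 in Veh, and 4 of the 5 rose in each sex. Markers of Schwann cells and satellite glia summed to 16327 to 21488 CPM in female PRL DRG, against 12514 to 14248.5 in Veh, and to 17277 to 19833 CPM in male PRL DRG, against 10528 to 14857 in Veh, and 1 of the 5 rose in each sex. The part of these cell types in the DRG results was not tested.

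Last, female PRL_Sh libraries were set against female PRL libraries. Kit and group cannot be told apart, and the difference was wide in the whole transcriptome: 61.6% of 14985 genes passed in DRG and 58.5% of 14800 in paw. Members passed about as often, 36 of 55 in DRG (65.5%, 23 higher and 13 lower in PRL_Sh, against 29.3% and 32.3% of all genes) and 33 in paw (60.0%, 24 higher and 9 lower, against 29.4% and 29% of all genes). The groups did not overlap for 38 members in DRG (against 67.9% of all genes) and for 42 in paw (against 66.1%).

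The Argonaute genes Eif2c3 and Eif2c2 had the widest shifts in both tissues. Eif2c3 had 2.48, 2.59 and 3.001 CPM in PRL_Sh DRG, against 122, 119.8 and 122 in PRL DRG (-5.49, edgeR adjusted p = 2.7e-08), and 11.9, 9.45 and 14.3 CPM in PRL_Sh paw, against 60.0, 65.8 and 56.5 in PRL paw (-2.35, edgeR adjusted p = 9.0e-05). Eif2c2, the Argonaute that cuts target RNA, had 28.6, 37.4 and 29.9 CPM in PRL_Sh DRG, against 179.8, 180.1 and 168 in PRL DRG (-2.46), and was lower by 2.11 on the log2 scale in paw. Eif2c1 was lower in PRL_Sh in both tissues, by 0.37 in DRG and 0.57 in paw. Eif2c4 was lower in DRG (-0.94) and did not pass in paw (-0.03, edgeR adjusted p = 0.86). All 4 genes were thus lower in PRL_Sh DRG than in PRL DRG.

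Most other members that passed were higher in PRL_Sh. Eif6 had 42.0, 46.1 and 47.9 CPM in PRL_Sh DRG, against 21.9, 24.5 and 26.8 in PRL DRG (0.89), and Eif3i had 177, 206 and 165 CPM in PRL_Sh paw, against 80.4, 78.0 and 75.4 in PRL paw (1.23). Eif4ebp1 had 32.9, 31.6 and 36.4 CPM in PRL_Sh paw, against 20.4, 13.8 and 12.1 in PRL paw (1.12). Eif3a, the largest eIF3 subunit, was lower in PRL_Sh, with 144, 201 and 179.9 CPM in PRL_Sh DRG, against 305, 301 and 301 in PRL DRG (-0.79). Eif4ebp2 was lower in both tissues, by 0.58 in DRG and 0.85 in paw. In paw, macrophage markers summed to 103.7 to 117 CPM in PRL_Sh, against 545.9 to 835.1 in PRL, and muscle markers to 20741 to 37120 CPM in PRL_Sh, against 483.4 to 10964 in PRL. Their part in the paw differences was not tested.

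**Figure D5:**
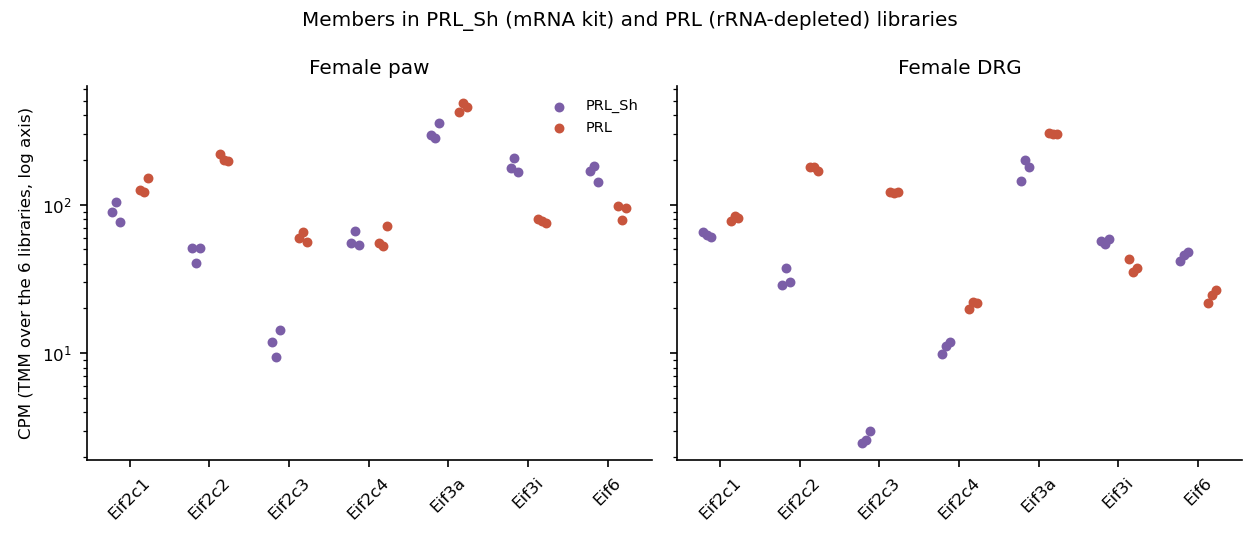
CPM per library, on a log axis, of 7 members in female paw (left) and female DRG (right), for 3 PRL_Sh libraries (mRNA kit, purple) and 3 PRL libraries (rRNA depletion, red). Eif2c3 lies near 2.5 to 3.0 CPM in PRL_Sh DRG, against about 122 in PRL DRG, while Eif3i and Eif6 lie higher in PRL_Sh in both tissues.

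A comparison chosen after seeing the data asked whether the paw-to-DRG difference itself was shifted between PRL_Sh and PRL libraries of females. It passed for 20 of 55 members (36.4%, against 38.6% of 16110 genes), 19 higher and 1 lower (against 25.9% and 12.7%), with a median of 0.25 for the members and 0.19 for all genes. The split of directions differed between settings: it was 12 higher and 6 lower with RLE, 13 higher and 7 lower with DESeq2, and 7 higher and 10 lower with no filter on low counts. Eif2c3 had the widest shift, 3.20 (edgeR adjusted p = 1.8e-06). Eif2ak3 was the member that was lower (-0.70, edgeR adjusted p = 0.00095).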

How the data were processed

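RNA-seq was analysed from 30 libraries. The values are read counts per gene as deposited by the authors, 22609 genes and 5 summary lines per library. Per the submitters' processing notes the tools were bcl2fastq, TopHat2 and HTSeq on mm9, with no versions given. Per the labels' protocols 500 ng of RNA gave stranded libraries read as single ends of 50 nt. The summary lines were left out of library sizes. Of all reads counted, 13.6% to 56.8% were in genes and 31.7% to 55.5% were not unique.

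Counts were tested in R 4.3.3 with edgeR 4.0.16: filterByExpr, TMM scaling within each fit (so that a library's CPM differs slightly between comparisons), quasi-likelihood F test, Benjamini-Hochberg adjustment over all genes, threshold 0.05. The 12 rRNA-depleted libraries of a tissue were fitted together. Veh libraries of both tissues, PRL_Sh of both tissues, PRL_Sh with PRL in each tissue, all 24 rRNA-depleted libraries, and (added after seeing the data) the 12 female PRL and PRL_Sh libraries had fits of their own. Standard errors come from the fit. Code was tested on simulated data. Other settings tried were DESeq2 1.42.0, each library left out in turn, RLE scaling, a filter at 1 CPM in 3 libraries or none, muscle markers as a covariate, a block for the replicate number, and fits restricted to both groups of a comparison.

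Members and lists were chosen with earlier results of these data known. Values were given for members past the threshold in PRL comparisons (where none passed, the 3 with the smallest p), up to 5 each way between tissues, up to 3 each way for PRL_Sh, fixed sets of related genes, and up to 4 genes by p of each of 4 further lists. The interferon list, Nnt, Wdfy1 and Gabra2 were added with the results known.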

Additional observations from a re-analysis of the deposited data

Results flagged for a closer look

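The response to PRL differed between paw and DRG, by the test of the difference itself, for 8 members. The difference, paw minus DRG on the log2 scale, was 0.81 for Eif2ak2, 0.49 for Eif1b, 0.44 for Eif4e3 and 0.28 for Eif2c3, and -0.28 for Eif3h, -0.30 for Eif1ad, -0.36 for Eif2c4 and -0.36 for Eif4ebp2. That is 14.5% of the members tested, against 14.9% of all genes.

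The paw-to-DRG difference was itself shifted between PRL_Sh and PRL libraries of females, in a comparison chosen after seeing the data in which kit and group cannot be told apart. The 8 members with the smallest p had shifts of 3.20 for Eif2c3, 1.41 for Eif3j, 1.10 for Eif1ax, 1.09 for Eif3e, 1.07 for Eif3m, 0.84 for Eif1, 0.63 for Eif2a and -0.70 for Eif2ak3, beside a median of 0.19 over all genes. The shift of Eif2a was 0.29 with no filter on low counts, where it did not pass, and was 0.36 without Female DRG PRL replicate 3 and 0.41 with RLE scaling or DESeq2. That of Eif3m was 0.67 without Female DRG PRL replicate 3, where it did not pass, and that of Eif1 was 0.50 with no filter. Eif3j, Eif1 and Eif3m share more than 10% of their 50-base stretches with other genes.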

How the results depend on the processing

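Counts of members past the threshold were 0 in DRG and for sex in each alternative except that DESeq2 called 1 in male DRG and 1 for the DRG average, and leaving out single libraries gave 0 to 1 for both. In paw DESeq2 called 2 in females, 10 in males and 15 on average, RLE scaling 13 on average, the muscle covariate 4 in females and 13 on average, and a fit of only the groups compared 0 in females. Leaving out single libraries gave 0 to 4 in female paw, 2 to 7 in male paw, 6 to 12 for the paw average, 4 to 9 for the response difference, 51 to 53 for Veh tissue, 44 to 49 for PRL_Sh tissue, 32 to 35 and 28 to 31 for PRL_Sh against PRL in DRG and paw, and 15 to 21 for the shift of the tissue difference. Within a tissue, no pairing of libraries of different groups by replicate number was seen, though this check cannot exclude one. Same-numbered libraries correlated with a median of -0.105 in DRG and -0.041 in paw, against 0.037 and 0.041 for differently numbered ones. Whether paw and DRG libraries of the same number came from the same animals was not tested, and the main fits treat them as unpaired. With the replicate number as a block, 2 members passed in female paw, 5 in male paw, 9 on average and 8 for the response difference. Of 1834 values of single genes under alternatives, 1707 kept direction and side of the threshold, 117 lost the call, 7 gained it and 3 reversed, none of which had passed: leaving out single libraries gave -0.0128 (without Female DRG Veh replicate 1) to 0.0465 for Eif4e2 between Veh tissues, and for Eif2ak2 between PRL_Sh tissues -0.0445 (without Female DRG PRL_Sh replicate 1) to 0.240, also below 0 without Female paw PRL_Sh replicate 2. Why the counts moved was not tested. Depth limits Eif4e1b, which had too few reads to test.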
